A study of Bos grunniens with 18 samples.

Results

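The 7 genes *SLC25A39*, *MARCHF2*, *PGAP6*, *CHAC2*, *BLVRB*, *HRCT1* and *ACKR1* were followed in the whole blood of yaks (*Bos grunniens*) at anestrus (the Y-A group), estrus (the Y-E group) and pregnancy (the Y-P group). They were found by name among the 20607 genes of the deposited table, 1 row each. They were chosen by their measured counts in these libraries, which were high at anestrus and moved with the share of counts on the hemoglobin genes, so both patterns are given here as a description, without a test. Each stage was represented by 6 libraries. The study followed 6 cows, aged 4 to 8 years, of an artificially inseminated herd. Its estrus programme combined a progesterone pessary, the prostaglandin analog cloprostenol and GnRH, with insemination at the estrus so timed, so that stage and hormone treatment cannot be told apart. Sampling dates, the day of pregnancy and blood counts were not used here. The labels do not say that a replicate number marks a cow, so that p-values measure the spread between these libraries.

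The mature red cell of mammals has no nucleus, but the young red cell released from the marrow, the reticulocyte, still carries RNA for hemoglobin and for the enzymes that make heme. Whole blood treated with TRIzol LS keeps this RNA beside that of the leukocytes and platelets. A dT-selected library of such blood can therefore hold a share of globin transcripts that moves with the reticulocytes and with any globin RNA that the preparation keeps. In a bulk sample, fewer cells of a type and less RNA per cell cannot be told apart.

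Several of the 7 genes have known work in red cells or in the handling of glutathione and heme. *SLC25A39* encodes the mitochondrial carrier that brings glutathione into the matrix, and *CHAC2* encodes an enzyme that breaks down cytosolic glutathione. *BLVRB* encodes biliverdin reductase B, an NADPH-dependent flavin reductase abundant in red cells. *MARCHF2* encodes a membrane-bound ubiquitin ligase of the RING-CH family, and *PGAP6* a phospholipase that acts on glycosylphosphatidylinositol (GPI) anchors. *ACKR1*, the Duffy antigen, is an atypical receptor on red cells and on the endothelium of venules that binds inflammatory chemokines without G protein signaling. *HRCT1* encodes a small histidine-rich membrane protein.

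In the coordinates of the deposited table, whose genome version is named v101, the genes lay on 7 different chromosomes. *SLC25A39* (ENSBGRG00000025643) was placed at chr19:21722191-21727403 on the plus strand, *MARCHF2* (ENSBGRG00000025151) at chr8:17751930-17763207 on the plus strand, and *PGAP6* (ENSBGRG00000013008) at chr26:47554541-47565129 on the plus strand. *CHAC2* (ENSBGRG00000014198) was placed at chr9:57346246-57354745 on the plus strand, inside *ASB3* of the minus strand. *BLVRB* (ENSBGRG00000020147) was placed at chr20:66298784-66318432 on the plus strand, *HRCT1* (ENSBGRG00000003456) at chr7:58308942-58309286 on the minus strand, and *ACKR1* (ENSBGRG00000012260) at chr3:6743365-6745374 on the plus strand. The other 6 overlapped no listed gene. Because the strand setting of the counting is not stated, reads of *CHAC2* and *ASB3* may have been mixed. *ASB3* itself had a mean of 30.3 CPM (counts scaled to a common depth after TMM normalization) at anestrus, 31.2 CPM at estrus and 31.8 CPM during pregnancy.

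The libraries held 30247267 to 48401076 counts. Their hemoglobin share, the percentage of counts on the 6 rows annotated as hemoglobin complex, had a median of 5.64% in Y-A (range 3.10% to 16.7%), 0.452% in Y-E (0.0899% to 8.36%) and 0.0463% in Y-P (0.0272% to 0.376%). Y-E replicate 6 stood apart with 8.36%, whereas the other 5 Y-E libraries lay between 0.0899% and 0.713%. Results that rest on it are given over 18 libraries and over the other 17. The table listed a part of the leukocyte markers by name, such as *CSF3R* of neutrophils (mean 2720 CPM in Y-A), *CD3D* of T cells (227 CPM) and *MS4A1* of B cells (412 CPM). By symbol, 11 of 14 neutrophil, 8 of 10 monocyte and 7 of 12 T cell markers were found. The same held for 8 of 9 B cell markers and 5 of 9 cytotoxic markers. For eosinophils, basophils and mast cells it was 7 of 11. Of 28 red cell markers, 18 were found by symbol, and their summed level ran from 559.7 to 11947 CPM in Y-A and from 196 to 303 CPM in Y-P.

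All 7 genes had their highest median in Y-A and, except for *CHAC2*, their lowest in Y-P. The mitochondrial glutathione carrier *SLC25A39* was the most abundant. Its level in Y-A ran from 145 to 1261 CPM (median 424), in Y-E from 66.0 to 616 CPM (median 91.1), and in Y-P from 48.2 to 95.1 CPM (median 62.7). The values of Y-A1 and Y-A6 (1081 and 1261 CPM) were far above those of Y-A2 and Y-A3 (145 and 165 CPM), and even the lowest of them exceeded every Y-P library. The fitted log2 fold change of Y-P vs. Y-A was −3.08 ± 0.63 (SE, n = 6 per stage), an 8.43-fold lower level.

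*MARCHF2* showed the same order at lower levels. It had a median of 154 CPM at anestrus (range 80.7 to 575), 51.9 CPM at estrus (35.1 to 283) and 23.3 CPM in pregnancy (20.5 to 46.6). The Y-P libraries were close together apart from Y-P6 at 46.6 CPM, which was also the Y-P library with the highest hemoglobin share. Its log2 fold change was −3.22 ± 0.59 in Y-P vs. Y-A.

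*PGAP6*, the GPI phospholipase, had the largest fall of the 5 more abundant genes. Its level had a median of 307 CPM at anestrus (range 91.0 to 628), 43.6 CPM at estrus (22.6 to 249) and 20.7 CPM in pregnancy (17.6 to 27.7). The Y-P libraries thus differed among themselves by a factor of 1.57, against 6.90 in Y-A. The log2 fold change of Y-P vs. Y-A was −3.81 ± 0.58, a 14.0-fold lower level.

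*BLVRB* had a median of 61.4 CPM at anestrus (range 51.3 to 302), 35.3 CPM at estrus (21.3 to 141) and 19.8 CPM in pregnancy (11 to 26.1). Its Y-A values fell apart into Y-A1 and Y-A6 at 302 and 280.4 CPM and 4 libraries between 51.3 and 66.7 CPM. The log2 fold change was −2.78 ± 0.54 in Y-P vs. Y-A.

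*CHAC2* differed from the other genes in the order of the later stages. Its level had a median of 23.8 CPM at anestrus (range 9.47 to 92.3), 4.00 CPM at estrus (3.10 to 44.9) and 5.82 CPM in pregnancy (4.20 to 8.60). Outside Y-E replicate 6, Y-E1 reached 12.3 CPM, above Y-A2 and Y-A3 (9.47 and 10.7 CPM), and the remaining 4 lay between 3.10 and 4.38 CPM. The Y-E and Y-P ranges overlapped. The log2 fold change of Y-P vs. Y-A was −2.56 ± 0.68, the smallest of the 7.

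*HRCT1* and *ACKR1* were close to the limit of detection and passed the low-count filter through Y-A and Y-E libraries only, so a difference between the stages was built into their selection. *HRCT1* had 233, 8, 59, 69, 107 and 169 counts in Y-A1 to Y-A6. The Y-E libraries had 19, 0, 3, 0, 4 and 154 counts and the Y-P libraries 2, 0, 2, 0, 3 and 5 counts, both in the order of their numbers. In 5 of the 6 Y-P libraries the counts were at or under 3, the number that an observed count of 0 allows (counting error only). Pooled over the libraries of a stage, 645 counts in Y-A stood against 12 in Y-P, a depth-corrected ratio of 67.2 (95% counting interval 38.2 to 131).

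*ACKR1* had 150, 20, 38, 10, 68 and 130 counts in Y-A1 to Y-A6, and 6, 0, 7, 0, 21 and 120 counts in Y-E1 to Y-E6. In Y-P, 3 counts were found in replicate 5 and 0 in the other 5 libraries. The pooled ratio of Y-A to Y-P was 173 with a counting interval of 58.9 to 844, which rests on those 3 counts. The endothelial markers, a second possible source of *ACKR1* RNA, had a summed level over 12 genes of 113 to 268 CPM in Y-A, 103 to 212 CPM in Y-E and 115 to 163 CPM in Y-P. Most of it was *PECAM1*, which leukocytes and platelets share (means of 105, 118 and 107 CPM). Of the other endothelial genes, *VWF* had means of 33.6, 22.4 and 6.83 CPM and *CDH5* of 1.27, 0.899 and 0.372 CPM, and both were called lower in Y-P vs. Y-A. *SELP* had means of 18.6, 18.8 and 15.2 CPM and was not called. Over the 9 endothelial genes tested, the log2 fold changes of Y-P vs. Y-A ran from −4.37 to 0.695, with a median of −0.307. The part of endothelial RNA in the *ACKR1* levels was not tested.

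**Figure D1:**
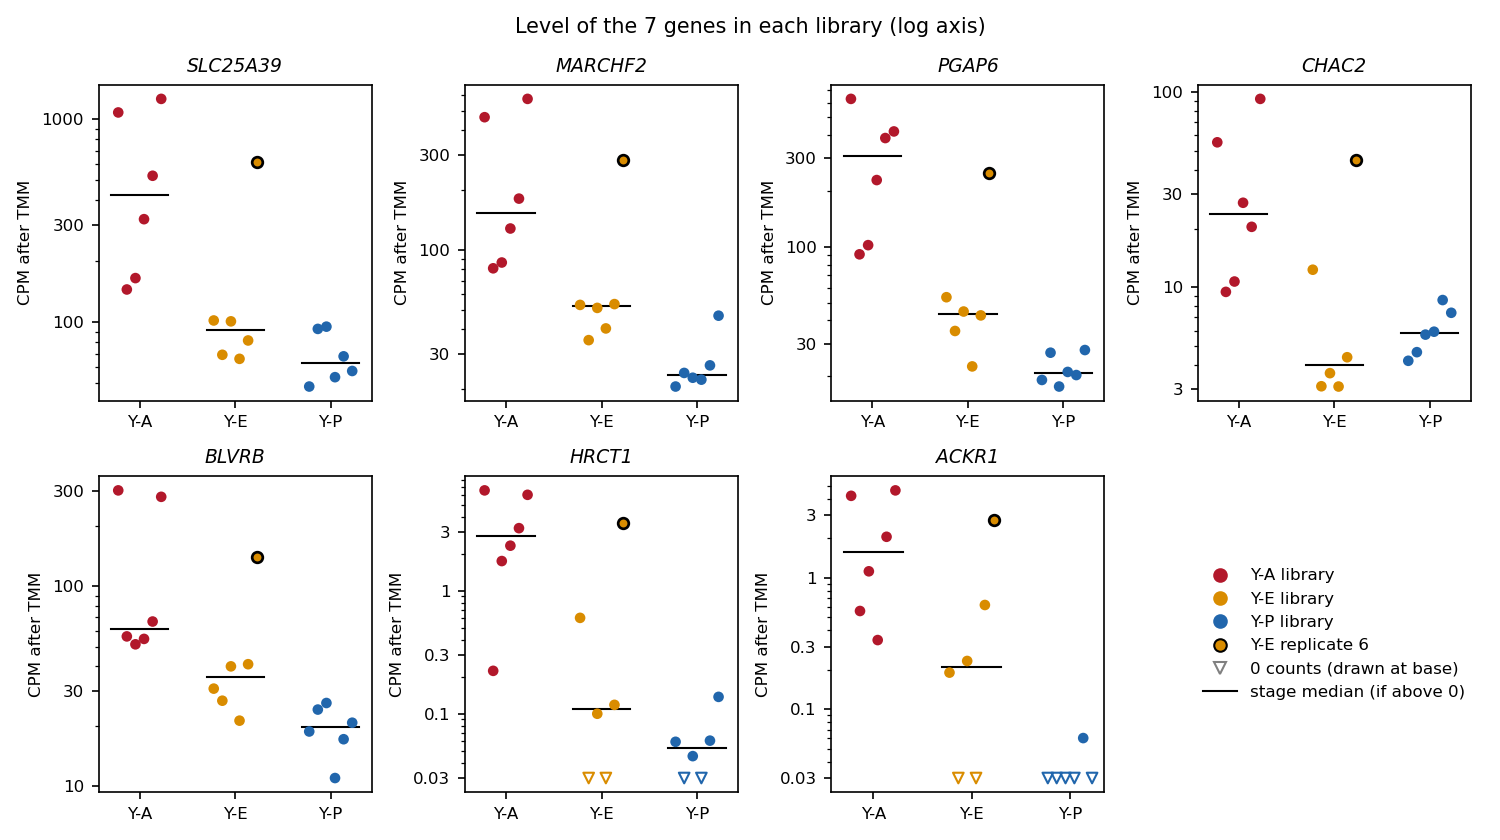
Level of each of the 7 genes in CPM after TMM normalization (log axis) in the 18 libraries, with 1 point per library, a line at the stage median, and open triangles at the base for libraries with 0 counts. The Y-P points lie below all Y-A points for 7 of 7 genes, and Y-E replicate 6 (outlined) lies above the other Y-E libraries for 7 of 7. The genes were chosen for these levels, so nothing is read from these counts.

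On a per-length scale, the deposited FPKM, the genes could be compared with each other. The mean FPKM in Y-A was 263 ± 208 (SD, n = 6) for *SLC25A39*, 132 ± 107 for *MARCHF2*, 131 ± 111 for *BLVRB*, 69.0 ± 42.8 for *PGAP6*, 53.5 ± 47.2 for *CHAC2*, 7.58 ± 5.36 for *HRCT1* and 1.05 ± 0.886 for *ACKR1*. The ranges of neighbours in this order overlapped from *SLC25A39* down to *CHAC2*. In Y-P the FPKM was 36.5 ± 7.82 for *SLC25A39*, 22.4 ± 4.99 for *BLVRB*, 16.8 ± 6.61 for *MARCHF2*, 10.8 ± 3.12 for *CHAC2* and 5.89 ± 1.17 for *PGAP6*. *PGAP6* thus stood above *CHAC2* by its mean in Y-A and below it in Y-P, and of these genes it had the lowest FPKM once the hemoglobin share was low.

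Across the stages, the 6 Y-P libraries lay wholly below the 6 Y-A libraries for 7 of 7 genes, and 7 of 7 were called in Y-P vs. Y-A (adjusted p under 0.05 and at least 1 on the log2 scale by edgeR's quasi-likelihood test). Of all 14508 genes tested, 1.09% were called lower and 0.345% higher in this comparison (158 and 50 genes). With library size as the only scaling, 116 were lower and 145 higher, and the median of all genes moved to 0.19. Since the genes were chosen for these levels, nothing is read from the number called or the number lying wholly below. No share of all genes lying wholly below is given here. The log2 fold changes ran from −2.56 to −7.15 with a median of −3.22, beside a median of 0.03 over all genes tested.

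The size of the step from anestrus to estrus, and its calls, depended on 1 library, while all 7 genes were lower in Y-E with and without it. Over 18 libraries the log2 fold changes of Y-E vs. Y-A ran from −1.43 to −2.17 (median −1.73). By edgeR 0 of 7 genes were called, where 0.0138% of all genes were called lower and 0% higher. DESeq2 called 1, *PGAP6*, where it called 6 of 14508 genes lower and 3 higher. It gave no adjusted p for *CHAC2*, *HRCT1* and *ACKR1*. Without Y-E replicate 6 the log2 fold changes ran from −2.08 to −4.33 (median −2.80). By edgeR 3 of 7 genes were then called, *SLC25A39*, *MARCHF2* and *PGAP6*, against 0.102% of genes called lower. With the replicate number as a block over the same 17 libraries, 4 were called, *MARCHF2*, *PGAP6*, *CHAC2* and *HRCT1*. Under that fit 27 of 14653 genes were called lower and 7 higher. Without Y-E replicate 6, the 5 remaining Y-E libraries lay wholly below the Y-A libraries for 4 of 7 genes, *SLC25A39*, *MARCHF2*, *PGAP6* and *BLVRB*. Over 18 libraries this held for 0 of 7. The genes were chosen for these levels and no share of all genes lying so is given, so nothing is read from these counts. For *HRCT1*, Y-E1 (0.601 CPM) stood above Y-A2 (0.223 CPM), and for *ACKR1*, Y-E5 (0.621 CPM) stood above Y-A2 and Y-A4 (0.559 and 0.336 CPM).

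Between estrus and pregnancy the ranges overlapped for 7 of 7 genes over 18 as over 17 libraries. The log2 fold changes of Y-P vs. Y-E ran from −0.97 (*CHAC2*) to −5.42 (*ACKR1*) over 18 libraries, and 3 of 7 genes were called, *PGAP6*, *HRCT1* and *ACKR1*, where 2.22% of all genes were called lower and 0.448% higher. DESeq2 also called *MARCHF2*, where it called 371 of all genes lower and 84 higher. Nothing is read from these counts either, since the genes were chosen on these levels and *HRCT1* and *ACKR1* passed the filter through Y-A and Y-E libraries only. Without Y-E replicate 6 the median moved from −1.67 to −0.78, 1 of 7 was called (*ACKR1*, against 2.12% of genes called lower), and *CHAC2* turned to 0.20 ± 0.52. In Y-P vs. Y-A the 7 calls were made over 17 libraries too, where 1.21% of genes were called lower. With the replicate number as a block, 0, 7 and 3 of the 7 genes were called from anestrus to estrus, from anestrus to pregnancy and from estrus to pregnancy, the last being *MARCHF2*, *HRCT1* and *ACKR1*. Of all 14508 genes, 9, 190 and 350 were called lower with this block in the same order, and 2, 66 and 71 higher.

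**Figure D2:**
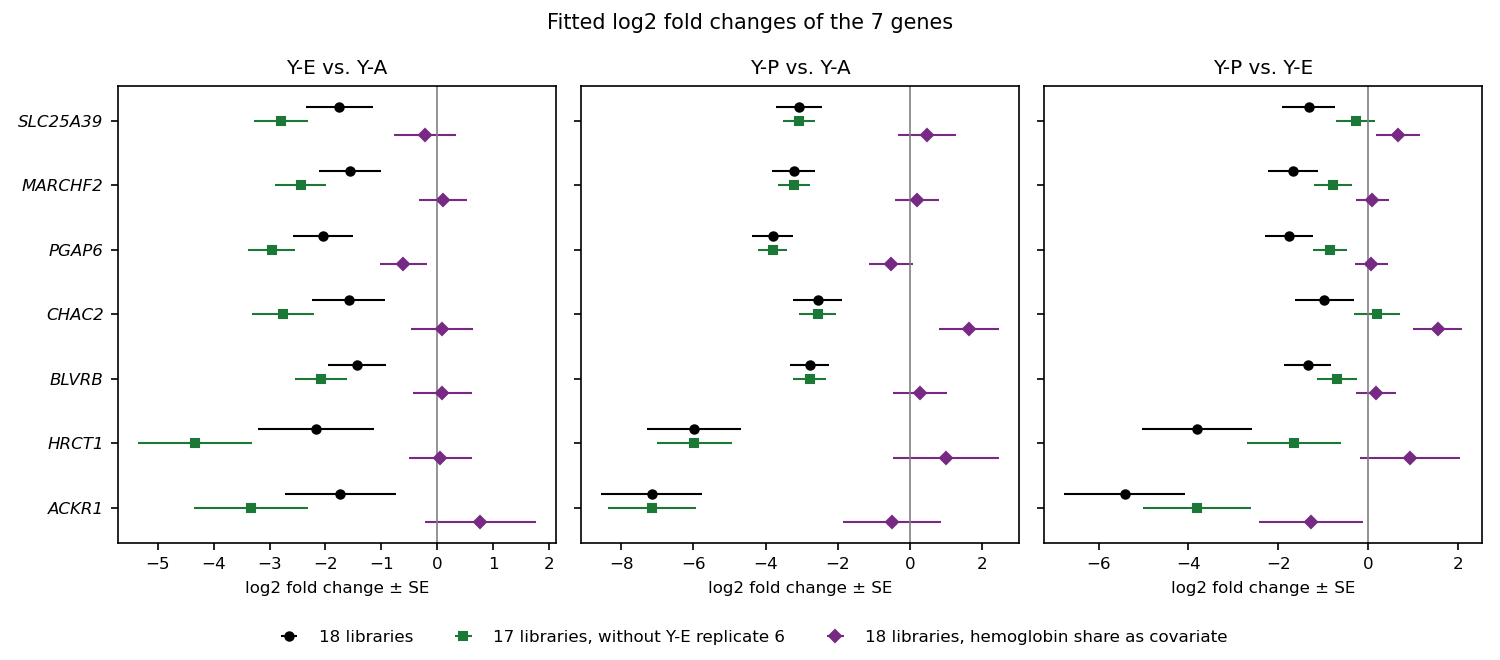
Fitted log2 fold change ± SE of each gene in the 3 comparisons over 18 libraries (circles), over 17 libraries without Y-E replicate 6 (squares), and over 18 libraries with the log2 hemoglobin share as a covariate (diamonds). The Y-P vs. Y-A values of the circles and squares lie between −2.56 and −7.15, and the medians of the diamonds are 0.08, 0.27 and 0.18 in the order of the panels.

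Within anestrus, the levels followed the hemoglobin share closely. Over the 6 Y-A libraries, Pearson's r between log2 level and log2 hemoglobin share was 0.970 for *SLC25A39*, 0.982 for *MARCHF2*, 0.874 for *PGAP6*, 0.914 for *CHAC2*, 0.922 for *BLVRB*, 0.823 for *HRCT1* and 0.922 for *ACKR1*. For *SLC25A39* and *MARCHF2* the rank order of the 6 libraries was the same as that of the hemoglobin share (Spearman's rho 1), and for the other 5 genes rho lay between 0.771 (*BLVRB*) and 0.943. The slopes lay between 0.999 and 1.38, where 1 means that a level doubled when the hemoglobin share doubled. Without Y-A1 and Y-A6, the libraries farthest from the median share, r over the remaining 4 lay between 0.537 (*CHAC2*) and 0.916 (*MARCHF2*).

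*BLVRB* did not rise evenly with the share. Between Y-A2 and Y-A5 the hemoglobin share went from 3.10% to 7.38%, while *BLVRB* went from 56.2 to 66.7 CPM and *SLC25A39* from 145 to 527 CPM. Without Y-A1 and Y-A6 the slope of *BLVRB* was 0.252, against 1.13 over all 6. *PGAP6* was instead relatively high in Y-A5 (386 CPM) and relatively low in Y-A6 (419 CPM), although Y-A6 had the highest hemoglobin share of all libraries.

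In pregnancy, where the hemoglobin share was under 0.4% in each library, the relation was not the same for all genes. Over the 6 Y-P libraries, r was 0.848 for *MARCHF2* and 0.860 for *PGAP6*, while it was −0.044 for *SLC25A39*, 0.140 for *CHAC2*, 0.383 for *BLVRB*, 0.506 for *HRCT1* and −0.224 for *ACKR1*. Both high values rested on Y-P2 and Y-P6, without which r was −0.110 and −0.161. With so few counts of *HRCT1* and *ACKR1* in Y-P, their r carries little. *SLC25A39* was highest in Y-P3 and Y-P2 (95.1 and 92.7 CPM), and Y-P3 had a hemoglobin share of 0.0313%.

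A level of 5 of the genes remained where the hemoglobin share was near its lowest. In Y-A there were 43.9 to 89.7 CPM of *SLC25A39* for each percent of hemoglobin share, and in Y-P 153 to 3036 CPM. For *MARCHF2* the same quotient ran from 22.9 to 38.6 in Y-A and from 124 to 816 in Y-P, and for *PGAP6* from 25.1 to 58.4 and from 73.7 to 777. *HRCT1* had quotients of 0.0722 to 0.593 in Y-A and of 0 to 1.45 in Y-P, the latter from 0 to 5 counts per library. The slope over the deviations from the stage means was below 1, at 0.401 for *BLVRB* and 0.828 for *HRCT1* at its lowest and highest.

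**Figure D3:**
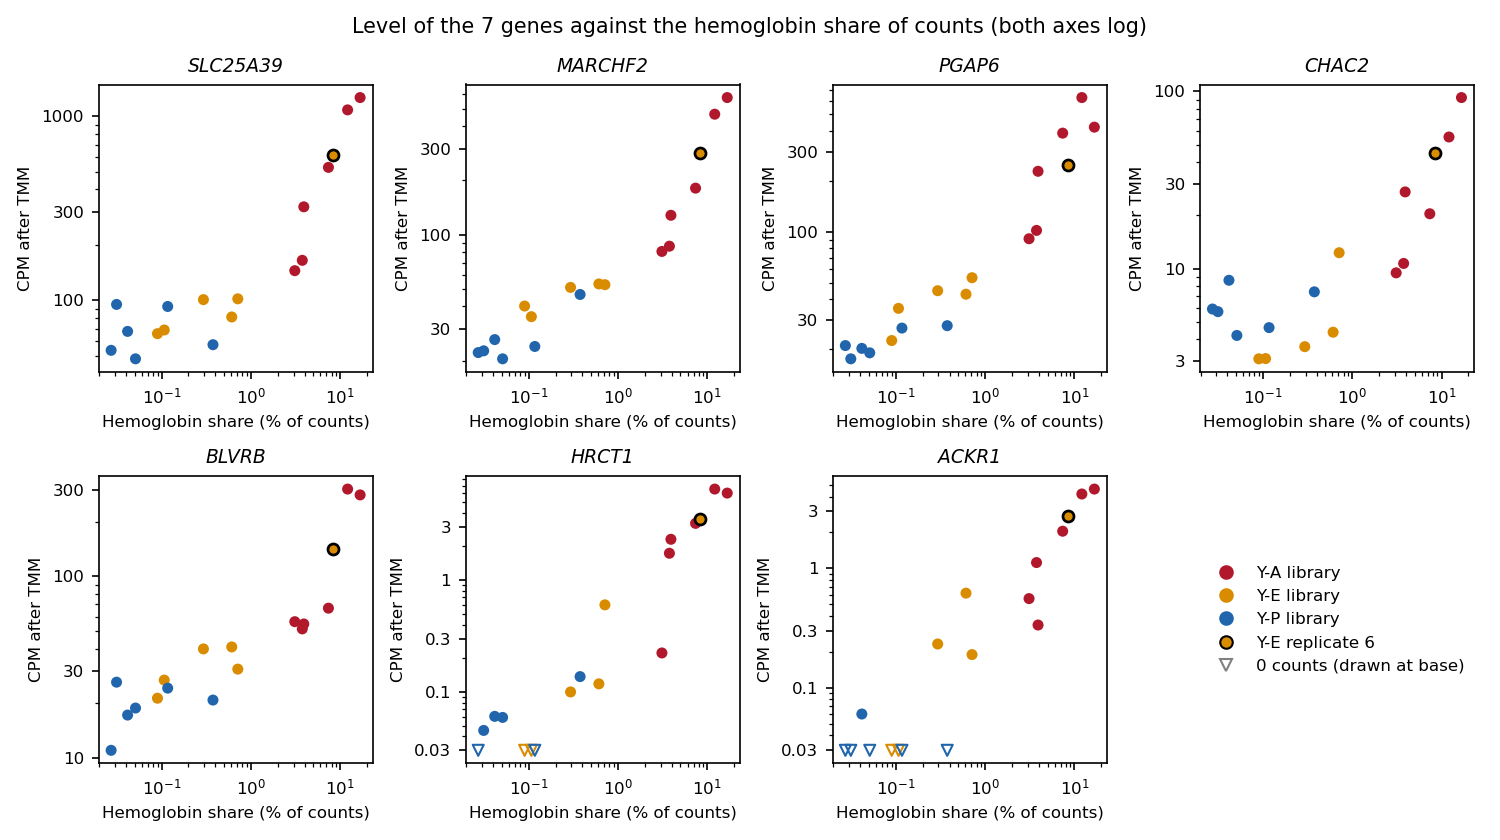
Level of each gene (CPM after TMM, log axis) against the hemoglobin share of counts (percent, log axis) in the 18 libraries, with open triangles at the base for 0 counts. The Y-A libraries and Y-E replicate 6 (outlined) lie at shares of 3.10% to 16.7% with the higher levels, and the Y-P libraries lie at shares of up to 0.376%.

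The libraries fell into separate groups by hemoglobin share, so the relation over all of them was computed on deviations from the stage means. Over the 18 libraries r was 0.720 for *SLC25A39*, 0.833 for *MARCHF2*, 0.817 for *PGAP6*, 0.777 for *CHAC2*, 0.735 for *BLVRB*, 0.834 for *HRCT1* and 0.782 for *ACKR1*. Spearman's rho lay between 0.651 (*SLC25A39*) and 0.808 (*PGAP6*). Among 14503 genes, hemoglobin rows left out, these placed *HRCT1* at rank 10, *MARCHF2* at rank 11, *PGAP6* at rank 19, *ACKR1* at rank 33, *CHAC2* at rank 37, *BLVRB* at rank 63 and *SLC25A39* at rank 79. Over 17 libraries without Y-E replicate 6, r lay between 0.5 (*SLC25A39*) and 0.707 (*MARCHF2*), rho between 0.515 (*SLC25A39*) and 0.839 (*HRCT1*), and the ranks between 40 (*MARCHF2*) and 495 (*SLC25A39*). The points share a library, its depth and its red cell RNA, and the rule had used the relation, so no p is given.

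Y-E replicate 6 was an estrus library with a hemoglobin share in the range of anestrus. Its hemoglobin share of 8.36% lay between those of Y-A5 (7.38%) and Y-A1 (12.1%), and the levels of 6 of 7 genes lay between those of the same libraries. *SLC25A39* reached 616 CPM in it, against 527 in Y-A5 and 1081 in Y-A1. *BLVRB* reached 141 CPM, against 66.7 and 302, and *ACKR1* 2.76 CPM, against 2.05 and 4.20. The exception was *PGAP6* with 249 CPM, below the 386 CPM of Y-A5. In each of the 7 genes this library exceeded the highest of the other Y-E libraries, by 3.45-fold (*BLVRB*) to 6.04-fold (*SLC25A39*). High levels in a library with a high share are built into the choice of the 7 genes, so nothing is read from them. Whether its levels went with the share rather than the stage was not tested.

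When the log2 hemoglobin share was added to the fit as a covariate, an alternative chosen after the data were seen, 0 of 7 genes were called in any comparison by edgeR. The genes were chosen for moving with that share, so this fit is no test of their stage difference, and nothing is read from it. Of all genes tested, 208 were called in Y-P vs. Y-A without the covariate and 3 with it. With the covariate, the medians of the log2 fold changes of the 7 genes were 0.08 from anestrus to estrus, 0.27 from anestrus to pregnancy and 0.18 from estrus to pregnancy. *CHAC2* had the highest values under it, 1.63 in Y-P vs. Y-A and 1.55 in Y-P vs. Y-E, and *ACKR1* the lowest in Y-P vs. Y-E at −1.26. The stage and the hemoglobin share moved together, and their parts in the levels cannot be told apart in this design.

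The replicate number 6 carried the highest hemoglobin share in each of the 3 stages. Of the 7 genes, 4 were highest in replicate 6 within Y-A, 7 within Y-E and 3 within Y-P. *MARCHF2* was highest in replicate 6 in all 3 stages. The genes were chosen for moving with the hemoglobin share, so nothing is read from these counts.

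The genes also moved with each other. Over 21 pairs, r of the deviations from the stage means lay between 0.723 (*BLVRB* and *HRCT1*) and 0.929 (*SLC25A39* and *PGAP6*), with a median of 0.838. Over 17 libraries the range was 0.575 to 0.877, with a median of 0.726. All 7 genes were chosen for moving with the hemoglobin share, so nothing is read from these correlations. The ratios between the genes were not fixed among Y-A libraries. The ratio of *SLC25A39* to *MARCHF2* moved least, from 1.79 in Y-A2 to 2.91 in Y-A5. The ratio of *PGAP6* to *BLVRB* ran from 1.49 in Y-A6 to 5.79 in Y-A5, and that of *SLC25A39* to *BLVRB* from 2.58 in Y-A2 to 7.91 in Y-A5. *HRCT1* to *ACKR1* ran from 0.4 in Y-A2 to 6.90 in Y-A4, from 8 to 69 counts of *HRCT1* and 20 to 10 counts of *ACKR1*.

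Genes with the pattern most like theirs were found by Pearson's r of log2 level over the 18 libraries. ENSBGRG00000026382, a row without a gene name, was nearest to *SLC25A39* (r = 0.992), *MARCHF2* (0.973), *PGAP6* (0.972) and *BLVRB* (0.965). *ALAD*, an enzyme of heme synthesis, was nearest to *CHAC2* (0.936). *DMTN*, which encodes the actin-bundling dematin of the red cell skeleton, was nearest to *ACKR1* (0.959). *SEMA6B* (0.953) was among the 3 nearest of *SLC25A39*, and *IFRD2* (0.936) among those of *BLVRB*. Over 17 libraries these r lay close by, at 0.927 for *ALAD*, 0.955 for *DMTN*, 0.949 for *SEMA6B* and 0.930 for *IFRD2*. By deviations from the stage means, the nearest gene of *CHAC2* was *ATG4A*, a protease of autophagy (0.930, and 0.892 over 17 libraries), above the erythroid factor *KLF1* (0.906, and lower over 17). The 3 nearest of *ACKR1* were *DMTN* (0.885 and 0.808), *BEND6* (0.872 and 0.875) and *FAM89A* (0.864 and 0.830). *BLVRB* had *IFRD2* (0.909 and 0.866) and *ADIPOR1* (0.884 and 0.911) among its nearest, and *PGAP6* had *SEMA6B* (0.858 and 0.731). *ALAS2* was near *MARCHF2* (0.928 and 0.888) and *UROD* near *SLC25A39* (0.921 and 0.870). *HEMGN*, a nuclear protein of erythroid precursors, was near *HRCT1* (0.869 and 0.763), behind a row without a gene name (0.901 and 0.822). By these deviations over 17 libraries, *ATG4A* stood at rank 3 and *KLF1* at rank 7 for *CHAC2*, and *SEMA6B* at rank 28 for *PGAP6*. For *ACKR1*, *BEND6* stood at rank 1, *FAM89A* at 6 and *DMTN* at 8. For *BLVRB*, *ADIPOR1* stood at rank 2 and *IFRD2* at 4. *ALAS2* stood at rank 1 for *MARCHF2*, *UROD* at 5 for *SLC25A39* and *HEMGN* at 10 for *HRCT1*.

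Of the SLC25 carriers other than *SLC25A39*, 34 were tested and 0 were called in each of the 3 comparisons by edgeR and by DESeq2, with 6, 9 and 11 at an unadjusted p under 0.05 from anestrus to estrus, from anestrus to pregnancy and from estrus to pregnancy. The median log2 fold change in Y-P vs. Y-A was −0.02. *SLC25A37*, the mitoferrin that carries iron into mitochondria for heme synthesis, had means of 156, 203 and 124 CPM at anestrus, estrus and pregnancy, and its log2 fold change of −0.71 in Y-P vs. Y-E (adjusted p = 0.00252, edgeR's quasi-likelihood test) was below the size asked for. *SLC25A38*, the glycine carrier of heme synthesis, had means of 54.7, 52.5 and 45.8 CPM.

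Among 7 other MARCHF ligases tested, 0 were called in each comparison by edgeR and by DESeq2, with 0, 2 and 2 at an unadjusted p under 0.05. *MARCHF8*, which is known to act on the transferrin receptor, had means of 50.2, 54.1 and 32.1 CPM, and its log2 fold change in Y-P vs. Y-A was −0.65 (adjusted p = 0.0173, edgeR), again in size under 1. *MARCHF3* had means of 1.14, 0.446 and 0.311 CPM, and in Y-E replicate 6 it had 1.24 CPM against a mean of 0.286 CPM in the other Y-E libraries.

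For *ACKR1*, the other atypical receptors gave 1 call among 4 tested. *CCRL2*, which binds the chemoattractant chemerin, was lower in Y-P vs. Y-A (log2 fold change −2.17 ± 0.63, adjusted p = 0.0470 by edgeR), and it had 40.2 CPM in Y-E replicate 6 against a mean of 7.81 CPM in the other Y-E libraries. *ACKR3* had means of 3.36, 3.37 and 4.08 CPM. Of the 16 chemokines listed as ligands of *ACKR1*, 6 were in the table by symbol and 3 were tested. *CCL16* was called lower in Y-P vs. Y-E (−1.26 ± 0.36, adjusted p = 0.0257 by edgeR), and it was the only ligand called in any comparison. From anestrus to either later stage, 0 ligands were called by edgeR and by DESeq2, with 1 and 0 at an unadjusted p under 0.05.

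The pathways in which the 7 genes act were looked at without them. Heme synthesis was the one with calls in Y-P vs. Y-A. Of its 9 enzymes, 3 were called lower and 0 higher, where 1.09% of all genes were called lower. *ALAS2*, the first and rate-limiting enzyme in red cell precursors, had means of 2614, 813 and 64.9 CPM, and its log2 fold change was −5.33 ± 1.13 (adjusted p = 0.0125). *ALAD* differed by −2.33 ± 0.57 (adjusted p = 0.0246), both by edgeR. DESeq2 called 4 enzymes lower. The list's median was −0.18. *ALAS1*, the form used by other cells, had means of 45.1, 42.8 and 45.4 CPM, and *FECH*, the last enzyme, 46.0, 36.2 and 44.6 CPM.

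In Y-E vs. Y-A, 0 of the 9 enzymes were called over 18 libraries (4 at an unadjusted p under 0.05, 0 by DESeq2). Without Y-E replicate 6, 4 were called lower, among them *ALAS2* (−4.40, adjusted p = 0.0139), *ALAD* (−2.59, adjusted p = 0.0167) and *UROD* (−1.49, adjusted p = 0.0350). In Y-P vs. Y-E, 1 enzyme, *ALAS2*, was called lower over 18 libraries by edgeR and 2 by DESeq2, and 0 were called over 17 by edgeR (1 at an unadjusted p under 0.05). *ALAS2* had 4261 CPM in Y-E replicate 6 and a mean of 124 CPM in the other Y-E libraries.

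Heme breakdown, with 9 genes tested, had 0 calls in each comparison by edgeR and by DESeq2, and 1, 2 and 3 genes at an unadjusted p under 0.05. *BLVRA*, the other biliverdin reductase, had means of 31.0, 29.8 and 32.7 CPM where *BLVRB* had 135, 50.0 and 19.7 CPM. The heme oxygenases *HMOX1* and *HMOX2* had means of 50.4, 58.2 and 37.3 CPM and of 28.9, 33.9 and 28.3 CPM. *BACH1*, a heme-sensing repressor, differed by −0.83 in Y-P vs. Y-E (adjusted p = 0.0102 by edgeR), below the size asked for.

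Glutathione metabolism, with 16 genes tested, had 0 calls in each comparison by edgeR and by DESeq2 (0, 3 and 5 at an unadjusted p under 0.05). Over 17 libraries *GPX3*, the extracellular glutathione peroxidase, was called lower in Y-P vs. Y-E (−1.01 ± 0.29, adjusted p = 0.0299 by edgeR). *GPX1*, the most abundant of the list, had means of 1113, 1452 and 886 CPM. *CHAC1*, the stress-induced relative of *CHAC2*, was not matched by symbol.

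Assembly of iron-sulfur clusters, for which mitochondrial glutathione is needed, had 0 calls among 19 genes in each comparison by edgeR and by DESeq2 (1, 7 and 6 at an unadjusted p under 0.05). Synthesis and remodelling of GPI anchors had 0 calls among 26 genes by both tools (0, 5 and 8). *TMEM8B*, a relative of *PGAP6* and the tested gene next to *HRCT1*, had means of 0.740, 0.769 and 0.489 CPM. Of 10 targets of the antioxidant factor NRF2, 1 was called, *ME1* in Y-P vs. Y-E (adjusted p = 0.0153 by edgeR), and 0 in the other comparisons, where 2 and 2 had an unadjusted p under 0.05 and DESeq2 called 0 in Y-E vs. Y-A and 1 in Y-P vs. Y-A.

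Of 18 red cell markers tested, 8 were called lower and 0 higher in Y-P vs. Y-A by edgeR, against 1.09% and 0.345% of all genes, and DESeq2 called 5 lower. *KLF1*, a transcription factor of red cell precursors, had means of 17.3, 5.23 and 1.22 CPM (log2 fold change −3.83 ± 0.84, adjusted p = 0.0149 by edgeR). *SLC4A1*, the band 3 anion exchanger, had 85.6, 28.8 and 0.577 CPM, and *TRIM58*, a ubiquitin ligase of late erythroid cells, 38.5, 18.8 and 3.44 CPM. *GATA1*, which megakaryocytes and some granulocytes share with red cell precursors, was not called, with means of 66.4, 49.1 and 37.9 CPM. Its log2 fold change of −0.81 in Y-P vs. Y-A (adjusted p = 0.0402 by edgeR) was in size under 1. *ALAS2* and *FECH* stand in both this list and that of heme synthesis.

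In Y-P vs. Y-E, 6 red cell markers were called lower over 18 libraries (2.22% of all genes) and 1, *DMTN*, over 17 (2.12%). In Y-E vs. Y-A, 0 were called over 18 (1 at an unadjusted p under 0.05, 0 by DESeq2) and 2, *KLF1* and *ALAS2*, over 17 (0.102% of all genes were lower). With the replicate number as a block over 18 libraries, 1 red cell marker was called lower in Y-E vs. Y-A (11 at an unadjusted p under 0.05). In Y-P vs. Y-A 10 were called lower with this block, and in Y-P vs. Y-E 8. Of all 14508 genes, 9 were called lower with it in Y-E vs. Y-A, 190 in Y-P vs. Y-A and 350 in Y-P vs. Y-E. The summed level of the list was 5111 CPM in Y-E replicate 6 and 257 to 325 CPM in the other Y-E libraries, and *ALAS2* alone made up 4261 CPM of the former. The 5 tested hemoglobin rows were all called lower in Y-P vs. Y-A by edgeR, and 4 by DESeq2. Blocked by replicate number, 3 were called lower in Y-E vs. Y-A, 5 in Y-P vs. Y-A and 4 in Y-P vs. Y-E. The share by which the 7 genes were chosen is counted on these rows, so nothing is read from their calls. They included *HBM* (57.6, 7.50 and 0.322 CPM) and ENSBGRG00000014632, which held most of the share with 7.31%, 1.93% and 0.0933% of the counts on average.

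**Figure D4:**
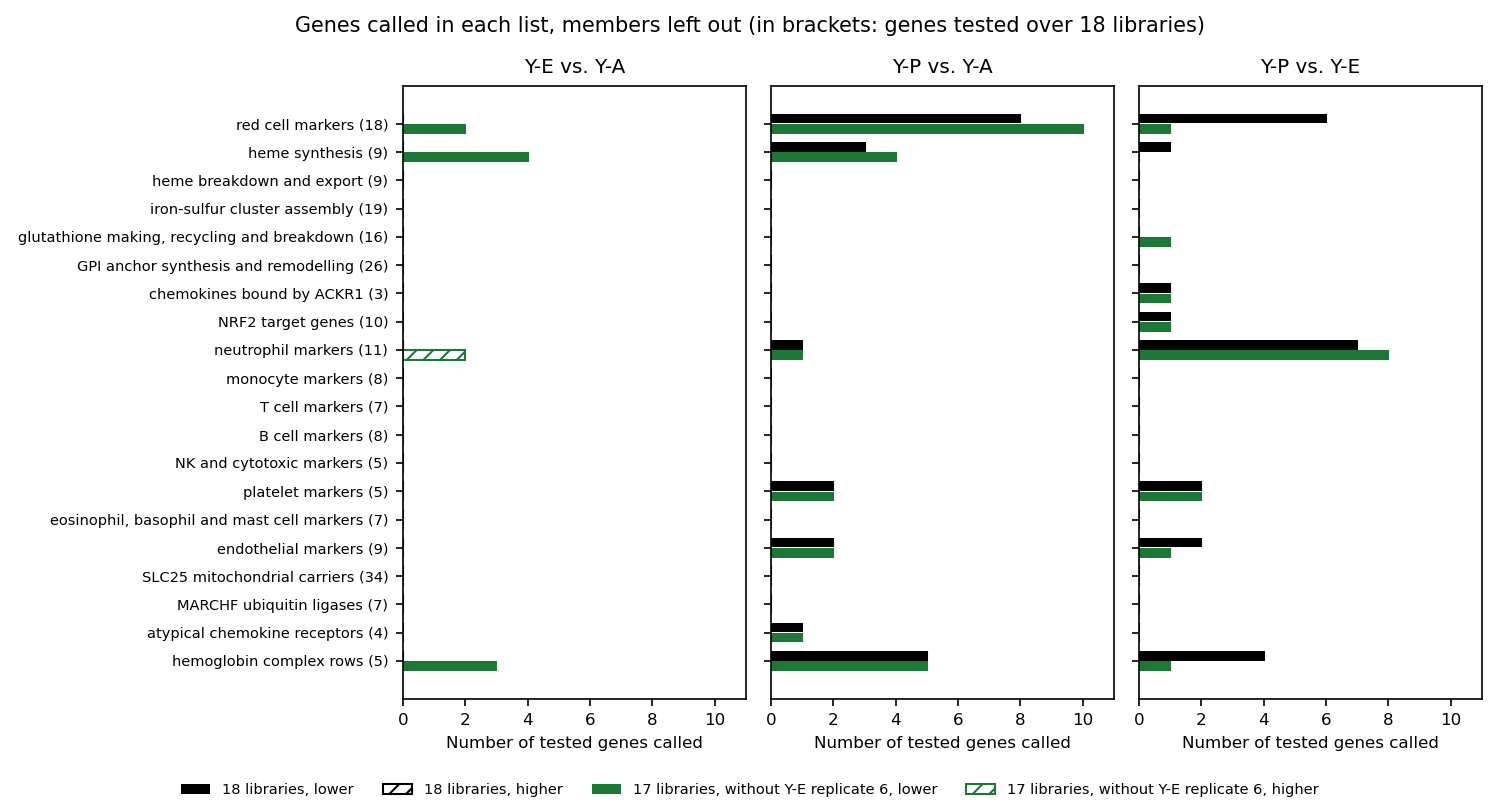
Number of tested genes called by edgeR in each gene list (7 chosen genes left out) in the 3 comparisons, over 18 libraries (black) and 17 libraries (green), filled for lower and hatched for higher calls, with the number tested in brackets. Red cell markers (8 of 18), heme synthesis (3 of 9) and the hemoglobin rows (5 of 5) hold the calls of Y-P vs. Y-A that involve red cells, and neutrophil markers hold 7 of 11 in Y-P vs. Y-E. The hemoglobin rows give the share by which the 7 genes were chosen, so nothing is read from their calls.

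Markers of other blood cells were looked at in the same libraries. In Y-P vs. Y-A, 1 of 11 neutrophil markers was called, *LTF* (lactoferrin, −2.61 ± 0.72, adjusted p = 0.0408 by edgeR). In Y-P vs. Y-E, 7 of 11 were called lower, among them *CSF3R* (−1.09 ± 0.16, adjusted p = 0.000426) and *MGAM* (−1.45 ± 0.25, adjusted p = 0.00120), where 2.22% of all genes were. Their summed level was highest in Y-E, with a median of 11341 CPM against 6217 in Y-A and 4506 in Y-P. It was 5949.6 CPM in Y-E replicate 6 and 8212 to 13793 CPM in the other Y-E libraries.

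Over 17 libraries 2 neutrophil markers, *MGAM* (1.09 ± 0.20, adjusted p = 0.0356) and *MMP9* (1.64 ± 0.31, adjusted p = 0.0444), were called higher in Y-E vs. Y-A by edgeR. Of 5 platelet markers, 2 were called lower in Y-P vs. Y-A, where 1.09% of all genes were, and 2 in Y-P vs. Y-E, where 2.22% were. *TUBB1*, the platelet tubulin, had means of 178, 182 and 76.8 CPM and differed by −1.21 ± 0.19 in Y-P vs. Y-A (adjusted p = 0.00234), and *TREML1* by −1.37 ± 0.39 (adjusted p = 0.0429). Among 9 endothelial markers tested, *VWF* (−2.30 ± 0.43, adjusted p = 0.00673) and *CDH5* (−1.77 ± 0.42, adjusted p = 0.0210) were called lower in Y-P vs. Y-A by edgeR. *VWF* had 43.4 CPM in Y-E replicate 6 and a mean of 18.2 CPM in the other Y-E libraries. In Y-E vs. Y-A, 0 platelet and 0 endothelial markers were called by edgeR and by DESeq2, with 0 and 0 at an unadjusted p under 0.05, and 0 neutrophil markers by edgeR over 18 libraries, with 3 at that p and 1 called by DESeq2.

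The lists for monocytes (8 tested), T cells (7), B cells (8), cytotoxic cells (5), and eosinophils, basophils and mast cells (7) had 0 calls in each comparison by edgeR and by DESeq2. In Y-P vs. Y-A, 2, 7, 1, 1 and 3 of them in this order had an unadjusted p under 0.05, in Y-P vs. Y-E 3, 6, 3, 1 and 0, and in Y-E vs. Y-A 1, 0, 0, 0 and 0. The summed level of T cell markers was 1158 to 1440 CPM in Y-A and 1432 to 2295 CPM in Y-P. The part of these cell types in the levels of the 7 genes was not tested.

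Genes next to the 7 on the chromosome were not called. The nearest tested genes, 15 in all with *ASB3*, gave 0 calls in each comparison by edgeR over 18 and over 17 libraries. *GRN*, which lay 21471 bases from *SLC25A39*, had means of 382, 476 and 275 CPM and differed by −0.79 in Y-P vs. Y-E (adjusted p = 0.0194 by edgeR), and *HNRNPM*, which lay 5915 bases from *MARCHF2*, 372, 363 and 479 CPM. *CADM3*, at 536 bases from *ACKR1*, had 0.399, 0.494 and 0.237 CPM. *SERTAD3*, at 2443 bases from *BLVRB*, had 63.2, 72.9 and 41.5 CPM, and its log2 fold change of −0.81 in Y-P vs. Y-E (adjusted p = 0.00598 by edgeR) was below 1.

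*PGAP6* lay on chromosome 26, as did 5 of the 6 hemoglobin rows. Its end was 165678 bases from the first of them, with 8 genes between. Of these, 5 were tested, and 0 were called in each comparison by edgeR or by DESeq2 (0, 0 and 1 at an unadjusted p under 0.05). *MRPL28*, the gene 1542 bases from *PGAP6*, had means of 20.7, 20.0 and 25.8 CPM, and *LUC7L* 100.3, 92.2 and 116 CPM. Over the 5 genes the log2 fold change of Y-P vs. Y-A ran from −0.23 (*RGS11*) to 0.32 (*MRPL28*), beside −3.81 at *PGAP6*.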

How the data were processed

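Whole-blood RNA of 18 libraries, 6 each at anestrus, estrus and pregnancy, was poly(A)-selected, prepared with a dUTP kit and read in pairs. Per the submitters' processing notes, cutadapt 1.9, HISAT2 2.2.1 and StringTie 2.1.6 were used, with genome version v101. The authors estimated FPKM (a level per length and depth) with StringTie and ballgown, and also deposited unnormalized counts per gene, whose making and strand setting are not given in the sources used here. Between libraries the FPKM belonging to a given share of counts varied from 0.947 to 1.08 relative to Y-A1, so CPM was used between stages.

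Groups followed the sample titles and column names. The quasi-likelihood test of edgeR 4.0.16 was run in R 4.3.3 on the deposited counts (TMM, filterByExpr, stage as the only factor, two-sided, Benjamini-Hochberg adjustment over 14508 genes). A gene was called where the adjusted p fell below 0.05 and the log2 fold change was 1 or more in size, as in the study. DESeq2 1.42.0 and limma 3.58.1 on log2(FPKM + 1) and log2(FPKM + 0.1), where fold changes of low genes are understated, served as alternatives, beside other scalings, no low-count filter, the 2 compared stages only, the replicate number as a block, and leaving out each library. A hemoglobin covariate was added after the data were seen. Correlations used log2 CPM with a prior count of 2. Counting intervals are at 95%, and they and the floor of 3 counts cover counting error only. The test was tried on simulated counts before use. Python 3.11.15 with pandas 2.3.3, numpy 2.4.6, scipy 1.17.1 and matplotlib 3.10.9 gave the summaries and plots.

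The chosen genes and the 19 gene lists were chosen with earlier results of these data known. Named were the 7 genes, up to 4 called and 2 abundant uncalled genes of a list, close relatives, the nearest genes on the chromosome and the 3 genes most like each by correlation. Results for 1 item that this rule would name are not reported here. List genes called without Y-E replicate 6 were also named, after their values were seen. Same-numbered libraries were checked for pairing: the correlation of their deviations from the stage means ran from −0.0544 to 0.515 in 18 pairs, and 14 exceeded 0.1. Between Y-A and Y-E 6 of 6 did (0.11 to 0.515), and between Y-P and each other stage 4 of 6. Differently numbered libraries were not compared, so this check cannot decide whether a number marks a cow. The main fit has no block. Blocked calls over 18 libraries are given for the 7 genes, the red cell markers and the hemoglobin rows. No promoter or protein sequences were used here.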

Additional observations from a re-analysis of the deposited data

Results flagged for a closer look

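Each of 24 groups of 6 libraries (7 genes and the hemoglobin share in 3 stages) was searched for a library set apart from the rest by a gap that is large against the range of its group. Of these, 11 had one. Chance flags about 1 in 20 independent groups, which is no measure for these, since the genes were chosen for moving together with the hemoglobin share.

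Y-E replicate 6 was such a library in 8 of the 11 groups. It had 616 CPM of *SLC25A39*, 283 CPM of *MARCHF2*, 249 CPM of *PGAP6*, 44.9 CPM of *CHAC2*, 141 CPM of *BLVRB*, 3.55 CPM of *HRCT1* and 2.76 CPM of *ACKR1*, and a hemoglobin share of 8.36%. The 8 values come from the same library and are not independent of each other.

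Y-P replicate 6 stood apart in 2 groups, with 46.6 CPM of *MARCHF2* and a hemoglobin share of 0.376%. *ACKR1* in Y-P replicate 5, at 0.0604 CPM, was apart only because the other 5 Y-P libraries had 0 counts, and it rests on 3 counts.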

How the results depend on the processing

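The calls of Y-E vs. Y-A depended on Y-E replicate 6. There, 2 genes were called over 18 libraries and 18 without it, 9 by DESeq2, 11 with the replicate block, 34 with the block over 17 libraries, 0 with the hemoglobin covariate over 18 or 17 libraries and 4 without Y-A replicate 1 (2 to 18 when each library was left out). Over the lists 0 calls became 10 without it, 1 by DESeq2, 4 with the block, 14 with the block over 17 libraries and 1 with limma and a pseudocount of 1 (0 to 10 leaving out each library). The median log2 fold change of the 7 genes went from −1.73 to −2.80 without it, to 0.0847 with the covariate and to −0.14 with it over 17 libraries (−2.80 to −1.39). In Y-P vs. Y-A, 208 called genes became 128 and 343 with limma and pseudocounts of 1 and 0.1, and 3 and 0 with the covariate over 18 and 17 libraries (110 to 229, the lowest without Y-P replicate 2, with 134 and 136 without Y-P replicates 4 and 5). The 21 list calls became 0 and 0 with the covariate (13 to 24, with 13 without Y-A replicate 6 and without Y-P replicate 2), and the median of −3.22 became 0.27 and 0.19 (−3.45 to −2.82). Which direction had more calls also turned: in Y-P vs. Y-A, 50 higher and 158 lower became 145 and 116 with library size only, and 78 and 50 and 240 and 103 with limma. In Y-P vs. Y-E, 65 higher and 322 lower became 137 and 196 with library size only, and 64 and 79 with limma and a pseudocount of 1. Only with limma and a pseudocount of 0.1 did the direction turn in Y-P vs. Y-E, to 195 and 156. There, 387 called genes became 143 with limma and a pseudocount of 1 and 158 with the covariate over 17 libraries (289 to 476). The 23 list calls became 10 and 15 with limma, and 9 and 5 with the covariate (14 to 23, with 14 and 15 without Y-P replicates 4 and 5), and the median of −1.67 became −0.69 with limma and a pseudocount of 1 and 0.18 and 0.17 with the covariate (−1.83 to −0.78). The sign of called genes turned with the covariate in Y-P vs. Y-A for *SLC25A39* (0.46), *MARCHF2* (0.20), *CHAC2* (1.63), *BLVRB* (0.27) and *HRCT1* (0.99), over 17 libraries for *CHAC2* (0.96), *BLVRB* (0.19), *HRCT1* (1.08) and *ACKR1* (0.35), and in Y-P vs. Y-E for *PGAP6* (0.0736) and *HRCT1* (0.94, and 0.99 over 17 libraries). The median r with the hemoglobin share of 0.782 ran from 0.624 to 0.83 leaving out each library. The cause of these shifts was not tested. The labels do not say that a number marks a cow. Deviations of same-numbered Y-A and Y-E libraries correlated at 0.11 to 0.515, but other pairs were not compared, so this cannot decide it. Blocked by this number, the medians of the 7 genes were −1.97, −2.86 and −1.22. Low counts limit *HRCT1* and *ACKR1* in pregnancy.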
